A study of Homo sapiens with 4 samples.

Results

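The MYC, MAX and MXD network was examined as 10 genes given by symbol: MYC, MYCN, MYCL, MAX, MXD1, MXD3, MXD4, MXI1, MNT and MLX. Of these 10, 9 were paired with a probe set and measured, among 17687 named genes in all, and each of the 9 had 1 probe set. No probe set was listed for MXD4, whose expression is not analysed here and which enters only the search of start sites. RNA came from PC-3 and 22Rv1 cells (labelled PC3 and 22RV1), 2 established human prostate cancer lines, of which PC-3 lacks p53 and 22Rv1 expresses it. In each line, cells stably carrying a lentiviral shRNA against TNFRSF13B (labelled shCD267, here shTNFRSF13B) were compared with cells carrying the empty vector (labelled Ctrl), to ask which genes differ when this TNF receptor family member is silenced. All 4 cell populations had been selected in puromycin, and a single shRNA target sequence was used, against a vector with no hairpin. With 1 array per condition there are no replicates, so no test was made, no value has a replicate error and no difference has a replicate check.

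MYC, MYCN and MYCL are transcription factors that drive growth and proliferation. Each pairs with MAX through a helix-loop-helix and leucine zipper, binds the E-box sequence CACGTG and recruits histone acetyltransferases. MXD1, MXI1, MXD3 and MXD4, and the larger protein MNT, compete for MAX and the same sites but recruit the SIN3 histone deacetylase complex and repress. MXD1, MXI1 and MXD4 are known for rising as cells stop dividing and differentiate, whereas MXD3 is made by dividing cells in S phase. MLX is a MAX-like partner that joins this family to MondoA (MLXIP) and ChREBP (MLXIPL), which respond to glucose. In prostate cancer, MYC is often overexpressed.

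Because the network acts through CACGTG, the start sites of its genes were searched for this sequence, which reads the same on both strands. RefSeq promoter windows of GRCh38.p14, each holding 250 bases before and 50 after a start site, were matched for 9 of the 10 genes, all except MYC, with 12 windows in all. The sequence was present in 3 of the 12 windows (25%), against 7.26% of the 35116 windows of all genes. It was also present in 9 of 22 windows of MYC-activated ribosome genes (40.9%) and in 10 of 31 windows of MYC-activated metabolic genes (32.3%), with no matching for base composition. A second form, CACGCG, searched on both strands, was in 2 of the 12 network windows (16.7%) and in 11.4% of all windows. The 3 network genes with the motif are shown, with a target of MondoA and MLX and 2 targets of MYC whose values follow, each as 30 bases from 5′ to 3′ on the gene's strand with the E-box in capitals. A match describes these letters only.
MNT, chr17:2401236-2401265, minus strand: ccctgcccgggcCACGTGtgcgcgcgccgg
MLX, chr17:42567038-42567067, plus strand: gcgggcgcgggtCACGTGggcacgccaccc
MXD4, chr4:2262330-2262359, minus strand: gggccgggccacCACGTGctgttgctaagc
ARRDC4, chr15:97960481-97960510, plus strand: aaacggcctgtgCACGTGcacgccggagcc
SRM, chr1:11060200-11060229, minus strand: ccggccgggcccCACGTGgcccctggagcg
CDK4, chr12:57752509-57752538, minus strand: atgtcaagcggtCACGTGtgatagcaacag

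The E-box began 193 bases before the start site of MNT, 50 before that of MLX, 238 before that of MXD4, 210 before that of ARRDC4 and 199 before that of SRM. The CDK4 window held 3 E-boxes, of which the one shown lay farthest from the start, at 216 bases. The windows of MYCN, MYCL, MXD1, MXD3, MXI1 and MAX held none. Of the targets named later, TXNIP, CAD, CTPS1, NOP16 and WDR12 also had none in their windows, whereas that of NOP2 held 1.

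The 22Rv1 empty vector array stood apart from the other arrays. Its median log2 value over 24351 probe sets was 5.33, whereas the other 3 arrays had medians of 6.93 to 7.01. The median log2 ratio of all genes (shTNFRSF13B minus empty vector) was accordingly 1.22 for the 22Rv1 pair of arrays and -0.0019 for the PC-3 pair. The 22Rv1 ratios of the network genes are therefore printed on the deposited scale and again with the 4 arrays quantile normalized to one distribution, a step that moved that median to -0.06. For other genes the scale is named beside each value. The part of this array in each 22Rv1 difference was not tested, because the array is the only control of its line. TNFRSF13B itself measured 5.25 (log2) with the empty vector and 4.85 with shTNFRSF13B in the PC-3 line, a log2 ratio of -0.40, and 6.08 and 5.63 in the 22Rv1 line. Its 22Rv1 log2 ratio was -0.45 as deposited, -2.20 with quantile normalization and -2.09 with centred medians, and it was negative with loess too, so the direction held on every scale while the size did not. Of the genes fixed as PC-3 markers, VIM was at log2 values of 14.76 and 15.47 on the PC-3 arrays and 6.50 and 5.90 on the 22Rv1 arrays. Of 6 measured luminal prostate genes fixed as 22Rv1 markers, FOLH1 and STEAP2 were higher on both 22Rv1 arrays than on both PC-3 arrays, with FOLH1 at 15.53 and 14.28 against 3.96 and 3.42. KLK2, KLK3 and TMPRSS2 overlapped between the lines as deposited, and HOXB13 was higher on the PC-3 arrays. The leukocyte, endothelial and fibroblast markers measured, 5 of 7 listed, were between 2.89 and 5.78 on all arrays, and the androgen receptor was not analysed here. As a reference for dim probe sets, the 95th percentile of 348 olfactory receptor genes was 4.98 and 4.92 on the PC-3 shTNFRSF13B and empty vector arrays and 5.30 and 3.91 on those of 22Rv1. The PC-3 shTNFRSF13B value of TNFRSF13B lay below this reference. Of the markers of other cells, CD3E and VWF were above the reference on all 4 arrays, and PTPRC and COL1A1 on the PC-3 shTNFRSF13B array only. Passing the reference thus does not by itself mark a gene as expressed.

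In PC-3 cells, MXD1 and MXI1 were higher with shTNFRSF13B, by 2.69-fold and 2.99-fold, while MYC was 1.63-fold lower. MXD3, the member of the MXD family found in dividing cells, was also 1.63-fold lower, so the repressors did not share a direction. In bulk RNA, fewer cells that express a gene and less of its RNA per cell cannot be told apart. MAX and MLX, the shared partners, differed by under 1.1-fold. In 22Rv1 cells, MNT was the member with the highest log2 ratio, at 3.06 as deposited and 1.48 after quantile normalization, and MYC had no direction that held across scalings.

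**Figure D1:**
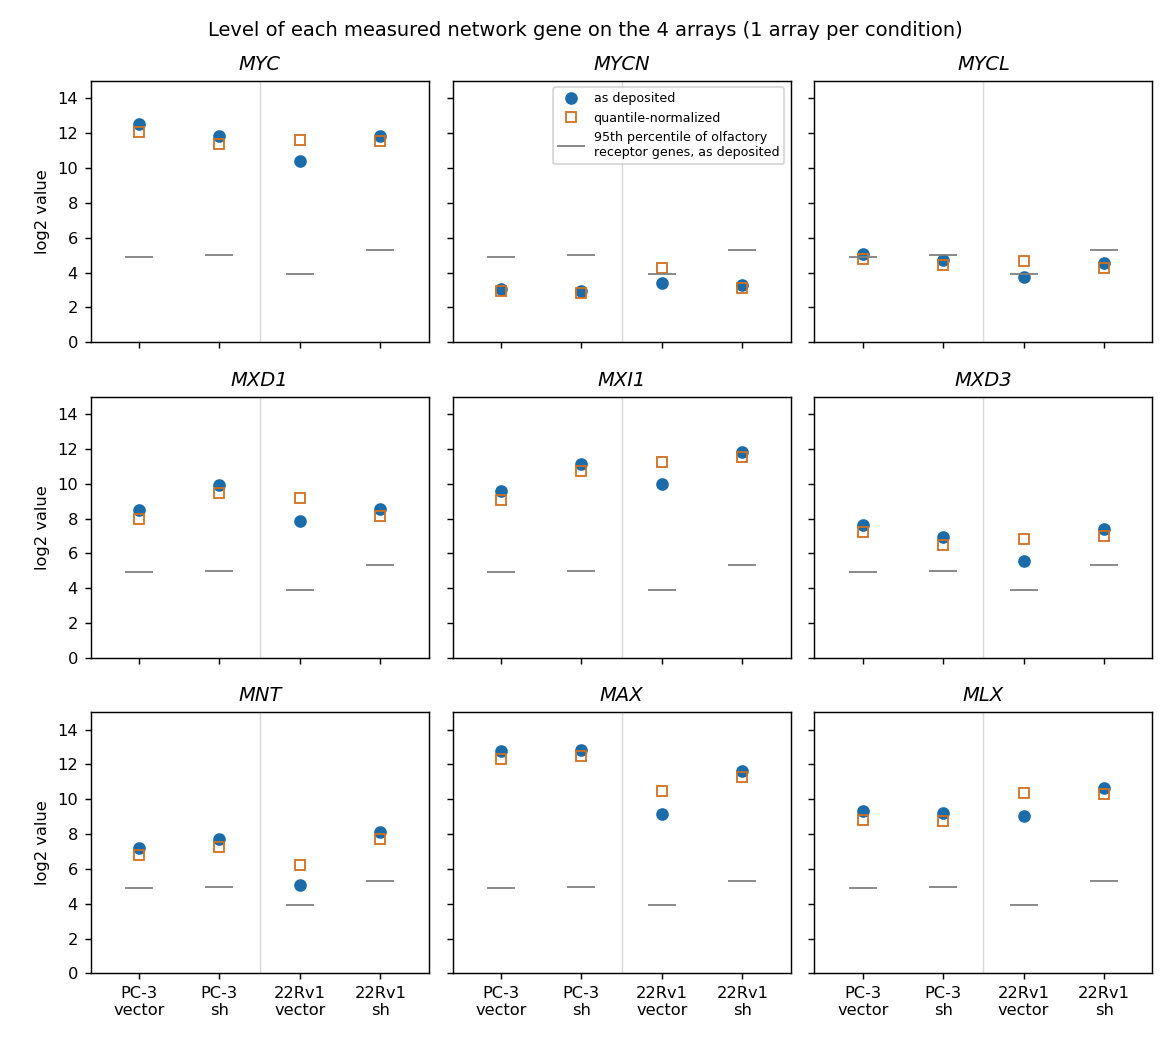
Log2 values of the 9 measured network genes on each array (x axis: line and construct; y axis: log2 value), as deposited (filled circles) and after quantile normalization (open squares), with a grey dash on each array at the olfactory receptor reference (95th percentile). The deposited values of the 22Rv1 empty vector array lie below their quantile-normalized values for all 9 genes, and MYCN lies below the grey dash on all 4 arrays.

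MYC, the family member used by most dividing cells, measured 12.53 (log2) on the PC-3 empty vector array and 11.83 on the PC-3 shTNFRSF13B array. On the 22Rv1 arrays it stood at 10.39 with the empty vector and 11.86 with shTNFRSF13B. The PC-3 empty vector array thus had the highest MYC value and the 22Rv1 empty vector array the lowest, with the 2 shTNFRSF13B arrays between them. After quantile normalization this order changed. The PC-3 empty vector array was still highest, at 12.06, but the PC-3 shTNFRSF13B array was lowest, at 11.40. The 22Rv1 arrays were at 11.62 with the empty vector and 11.55 with shTNFRSF13B. The range was 0.66, and the spread that would separate neighbours in either order was not measured. The MYC log2 ratio in PC-3 cells was -0.70, and 9.99% of all genes had a lower one. In 22Rv1 cells the MYC log2 ratio was 1.47 as deposited but -0.06 after quantile normalization, -0.16 with the array medians centred and -0.0040 after loess, so its sign depended on the scaling. Among all genes it lay at the 59.7th percentile as deposited and at the 49.8th after quantile normalization, close to the middle on either scale.

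MYCN and MYCL, best known from neuroblastoma and small cell lung cancer, were dim. MYCN was at 3.08 and 2.93 on the PC-3 empty vector and shTNFRSF13B arrays and at 3.43 and 3.31 on those of 22Rv1. All 4 MYCN values lay below the olfactory receptor reference, so its ratios describe background. MYCL was at 5.06 and 4.71 in the PC-3 line and at 3.75 and 4.55 in 22Rv1 cells, and only the PC-3 empty vector value passed the reference. MYC was therefore the only 1 of the 3 MYC genes that was above the reference on all arrays.

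MXD1, which is known for rising in cells that leave the cell cycle, measured 8.50 (log2) on the PC-3 empty vector array and 9.92 on the PC-3 shTNFRSF13B array. This log2 ratio of 1.43 was above those of 97.3% of all genes. In 22Rv1 cells MXD1 was at 7.83 with the empty vector and 8.55 with shTNFRSF13B, a log2 ratio of 0.72 that was below the median of all genes, 1.22, on the same scale. After quantile normalization the MXD1 ratio was -1.06 for 22Rv1, lower by 2.08-fold, and 1.48 for PC-3. The direction of MXD1 in 22Rv1 cells thus turned with the scaling, whereas its log2 ratio was lower in 22Rv1 than in PC-3 cells on each of the 4 scales, by differences (22Rv1 minus PC-3) of -0.71 as deposited and -2.54 after quantile normalization.

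MXI1, also called MXD2, was at 9.56 on the PC-3 empty vector array and 11.14 on the PC-3 shTNFRSF13B array. Its log2 ratio of 1.58 in PC-3 cells was the highest of the 9 genes, above those of 97.8% of all genes, and was 1.67 after quantile normalization. On the 22Rv1 arrays MXI1 was at 9.98 with the empty vector and 11.83 with shTNFRSF13B, which as deposited is a log2 ratio of 1.85. After quantile normalization that ratio was 0.26, at the 64.4th percentile of all genes. MXI1 was thus higher with shTNFRSF13B in both lines on every scale run, but passed 2-fold in 22Rv1 cells only as deposited.

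MXD3 was at 7.64 and 6.93 on the PC-3 empty vector and shTNFRSF13B arrays, a log2 ratio of -0.71. In 22Rv1 cells it was at 5.54 with the empty vector and 7.39 with shTNFRSF13B, which gives log2 ratios of 1.84 (deposited) and 0.16 (quantile normalized). MXD3 was the only member whose direction was opposite in the 2 lines on all 4 scales, although the 22Rv1 side was 1.12-fold after quantile normalization.

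MNT, a repressor that most cells express whether they divide or not, was at 7.17 and 7.71 on the PC-3 empty vector and shTNFRSF13B arrays, a log2 ratio of 0.54. In 22Rv1 cells it was at 5.07 with the empty vector and 8.13 with shTNFRSF13B. Its 22Rv1 log2 ratio of 3.06 was above those of 94.2% of all genes as deposited, and 1.48 after quantile normalization was above those of 93.6%. MNT was the 1 member that was at least 2-fold higher in 22Rv1 cells on each of the 4 scales.

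MAX, the obligate partner of the MYC genes and the MXD genes, was at 12.75 and 12.81 on the PC-3 empty vector and shTNFRSF13B arrays, a log2 ratio of 0.06. In 22Rv1 cells MAX was at 9.18 with the empty vector and 11.60 with shTNFRSF13B, with log2 ratios of 2.42 as deposited and 0.81 after quantile normalization. Its highest values were therefore on the PC-3 arrays, and after quantile normalization MAX was still 1.84 higher on the log2 scale in PC-3 than in 22Rv1 cells with the empty vector and 1.22 higher with shTNFRSF13B. MLX was at 9.30 and 9.22 in PC-3 cells and at 9.03 and 10.67 in 22Rv1 cells, in the order of empty vector and shTNFRSF13B. The 22Rv1 log2 ratio of MLX, 1.64 as deposited, was -0.03 after quantile normalization, so MLX was close to the middle of all genes in both lines.

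**Figure D2:**
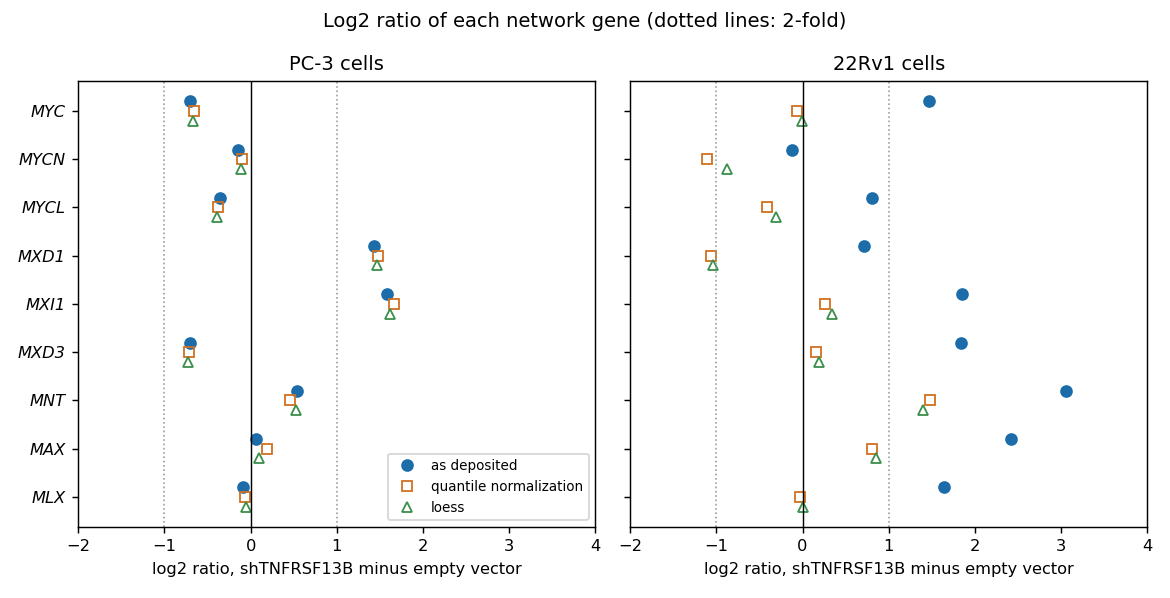
Log2 ratio, shTNFRSF13B minus empty vector, of each network gene (y axis) in the PC-3 panel and the 22Rv1 panel (x axes, log2 units), as deposited, after quantile normalization and after loess. The 3 scales nearly coincide in PC-3 cells, where MXD1 and MXI1 lie past the 2-fold line, and separate in 22Rv1 cells, where MNT lies past it on all 3.

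By the study's criterion of 2-fold, 2 of the 9 members were higher and none was lower in PC-3 cells. Over all genes 5.76% were higher and 4.69% lower by this criterion. In 22Rv1 cells as deposited, 6 of the 9 were higher and none was lower, beside 58.3% and 2.01% of all genes, so the members' share of 66.7% was near that of all genes. After quantile normalization 1 was higher (MNT) and 2 were lower (MXD1 and MYCN, which was at background), beside 13.3% and 15.5% of all genes. The members' shares, 11.1% and 22.2%, were near those of all genes. The median log2 ratio of the 9 members was -0.08 for PC-3, and for 22Rv1 it was 1.64 on the deposited and -0.03 on the quantile scale. These medians stood beside -0.0019, 1.22 and -0.06 for all genes. In PC-3 cells MXD1 and MXI1 thus passed 2-fold while the median of the network lay near that of all genes.

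**Figure D3:**
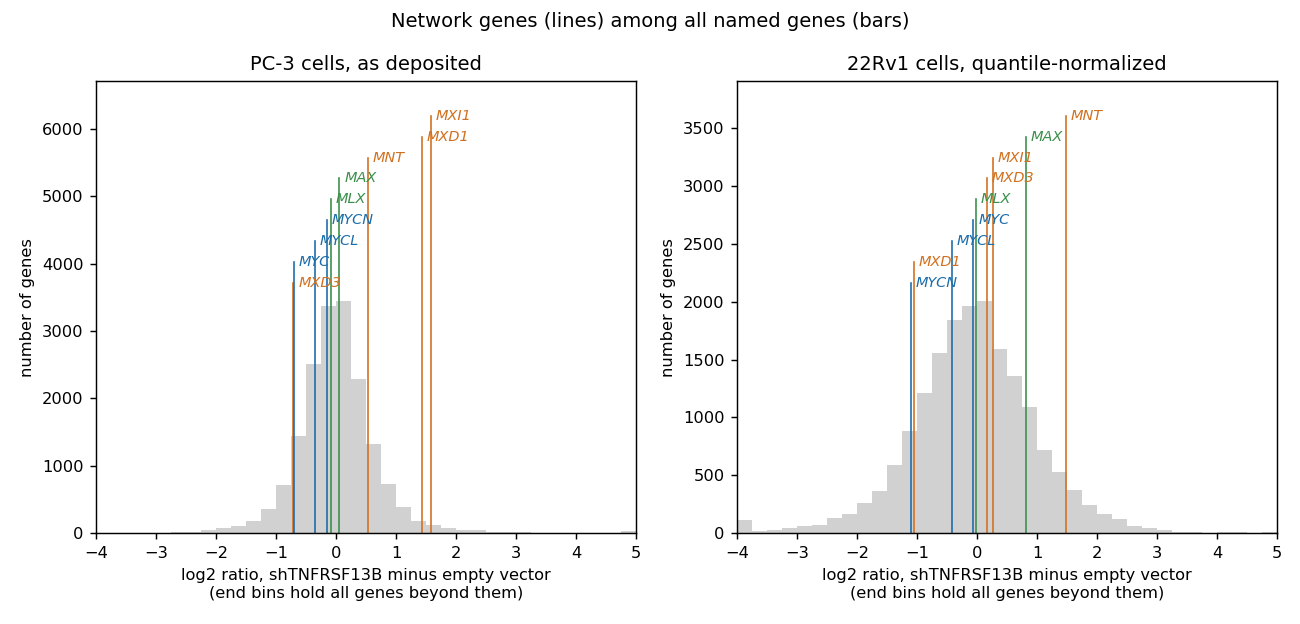
Number of named genes (y axis, grey bars) by log2 ratio (x axis, bins of 0.25) for PC-3 (deposited values) and 22Rv1 (quantile-normalized values), with vertical lines at the MYC genes (blue), the MXD genes and MNT (orange) and MAX and MLX (green); line heights carry no value. MXD1 and MXI1 lie in the upper tail of the PC-3 panel, whereas in the 22Rv1 panel MXD1 lies low and MNT high.

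The MYC genes were then contrasted with the MXD repressors, as a difference between log2 ratios within a line, in which a constant shift of an array cancels. MYC itself is given first, since MYCN and MYCL were dim. In PC-3 cells the log2 ratio of MYC minus that of MXD1 was -2.13, and minus that of MXI1 it was -2.28. MYC and MXD3 differed by 0.0073 only, so the difference from the MXD repressors in PC-3 cells rested on MXD1 and MXI1. Minus that of MNT, a repressor outside the MXD genes, the log2 ratio of MYC in PC-3 cells was -1.24. In 22Rv1 cells, the log2 ratio of MYC differed by 0.76 from that of MXD1, -0.38 from MXI1, -0.37 from MXD3 and -1.59 from MNT as deposited. After quantile normalization these 4 differences were 0.99, -0.32, -0.22 and -1.55. The sign of the difference between MYC and MXD1 was thus opposite in the 2 lines, negative in PC-3 and positive in 22Rv1 cells on each of the 4 scales, and the difference between the lines was not tested. Over the families, the median log2 ratio of the 3 MYC genes minus that of the 3 measured MXD repressors was -1.78 in PC-3 cells (-0.35 and 1.43). For 22Rv1 it was -1.04 as deposited (0.80 and 1.84) and -0.58 after quantile normalization (-0.42 and 0.16). In each of these the MYC family median is the ratio of MYCL, which was below the olfactory receptor reference on both 22Rv1 arrays and on the PC-3 shTNFRSF13B array, so the family contrasts are not to be read beyond those of MYC itself. The MXD median is the ratio of MXD1 in PC-3 cells but of MXD3 in 22Rv1 cells, so the family contrasts of the 2 lines rest on different repressors. With dim genes left out, MYC alone stood for its family in 22Rv1 cells and the contrast was -0.37, which is that of MYC with MXD3.

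Of the other members of the wider network, MGA, a large MAX-binding repressor, was at 10.09 and 10.31 on the PC-3 empty vector and shTNFRSF13B arrays and at 9.91 and 12.40 on those of 22Rv1. Its 22Rv1 log2 ratio was 2.48 as deposited and 0.87 after quantile normalization, close to the values of MAX. MLXIP had log2 ratios of 0.15 (PC-3) and 1.09 (22Rv1), or -0.69 in the latter after quantile normalization. MLXIPL passed the olfactory receptor reference on the PC-3 empty vector array only, where it was at 5.69, against 4.95 with shTNFRSF13B.

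Most measured genes in the lists of MYC-activated genes had lower PC-3 values with shTNFRSF13B. These lists were written with earlier results of these data known, so their counts describe the listed genes only. Of 18 measured genes of ribosome biogenesis, all 18 had a log2 ratio below 0, beside 50.2% of all genes, and 7 were at least 2-fold lower (38.9%, against 4.69% of all genes) while none was higher. Their median log2 ratio was -0.74. Among them, TCOF1, which serves transcription of ribosomal DNA, had a log2 ratio of -1.22, NOP16 one of -1.17, NOP2 one of -0.82 and WDR12, of the complex that matures the large subunit, one of -0.59. In 22Rv1 cells the median of the 18 was 1.70 on the deposited scale and 0.15 on the quantile scale. On the quantile scale none was at least 2-fold higher and 3 were lower (MRTO4, POLR1B and RRS1), beside 13.3% and 15.5% of all genes. The share lower, 16.7%, was thus near that of all genes. On that scale NOP16 was at 0.94, WDR12 at 0.85, NOP2 at 0.81 and TCOF1 at 0.80, the highest values of the 18. These genes were named for the largest deposited log2 ratios of the list, which were their 22Rv1 ratios, so they are not typical of it. The ribosome genes therefore lay well below the median of all genes in PC-3 cells and close to it in 22Rv1 cells.

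Of 20 measured MYC-activated genes of metabolism and translation, 18 were below 0 in PC-3 cells, 5 passed 2-fold downwards (25%: AHCY, CTPS1, IMPDH2, HK2 and SHMT2) and none upwards. Their median log2 ratio was -0.80. In 22Rv1 cells their median was 2.19 on the deposited scale and 0.69 on the quantile scale, where 7 of the 20 passed 2-fold upwards (35.0%) and none downwards. CAD, the enzyme that begins pyrimidine synthesis, had log2 values of 9.03 and 8.09 on the PC-3 empty vector and shTNFRSF13B arrays and 4.96 and 9.44 on those of 22Rv1. CTPS1, which makes CTP, was at 11.35 and 9.56 in PC-3 cells and at 8.47 and 11.81 in 22Rv1 cells. With shTNFRSF13B both thus had lower values in PC-3 but higher ones in 22Rv1, where their ratios on the quantile scale were 2.95 and 1.68. CDK4, a G1 kinase, had a log2 ratio of -0.59 in the PC-3 line, and for 22Rv1 it had 3.76 as deposited and 2.30 quantile normalized. SRM, the spermidine synthase, had -0.91 for PC-3, and 3.06 and 1.41 for 22Rv1 on these scales. CAD, CTPS1, CDK4 and SRM were named for the largest deposited log2 ratios of the list, which were their 22Rv1 ratios, so they are not typical of it. Beside the counts of this list, 4.69% of all genes were at least 2-fold lower and 5.76% higher in the PC-3 line, and 13.3% were higher in the 22Rv1 line on the quantile scale. Counting genes below 0 in the PC-3 line as deposited but above 0 in the 22Rv1 line on the quantile scale gave 15 of the 20 metabolic genes (75.0%). The same count gave 11 of the 18 ribosome genes (61.1%), beside 25.5% of all genes. MYC itself had no such pair of directions on these scales, at -0.70 and -0.06, although its 22Rv1 log2 ratio was 1.47 as deposited.

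Of 8 measured genes that MYC is known to repress, 3 were at least 2-fold higher and none was lower in PC-3 cells, beside 5.76% and 4.69% of all genes. Their median log2 ratio was 0.48. The CDK inhibitor CDKN2B was at 7.97 and 9.85 on the PC-3 empty vector and shTNFRSF13B arrays, and the stress gene NDRG1 at 6.04 and 7.85. THBS1, which encodes an angiogenesis inhibitor, was the third, at 9.08 and 10.36. The list did not share a direction in PC-3 cells, where 3 of the 8 were below 0: CDKN1A (-0.31), GADD45A (-0.42) and GAS1 (-0.45). CDKN1B was at 0.31 and CEBPA at 0.65. In 22Rv1 cells the list had a median of -0.10 as deposited and -1.33 after quantile normalization. As deposited, 2 of the 8 were at least 2-fold higher, CDKN2B (1.40) and CDKN1B (1.30), and 3 were lower, CDKN1A (-2.53), GADD45A (-2.15) and NDRG1 (-1.11), beside 58.3% and 2.01% of all genes. After quantile normalization none was higher and 4 were lower, beside 13.3% and 15.5% of all genes, with CDKN1A at -3.81, GADD45A at -3.73, NDRG1 at -2.83 and THBS1 at -2.35. The NDRG1 value with shTNFRSF13B, 5.05, lay below the olfactory receptor reference. CDKN1A and GADD45A are also p53 target genes. GAS1 and CEBPA were below the reference on all 4 arrays.

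TXNIP and ARRDC4, arrestin-like genes that MondoA and MLX activate when glucose is plentiful, were lower with shTNFRSF13B in 22Rv1 cells on every scale run. TXNIP was at 12.29 on the 22Rv1 empty vector array and 10.77 on the shTNFRSF13B array, which gives log2 ratios of -1.52 (deposited) and -2.85 (quantile normalized). ARRDC4 was at 9.92 and 7.05 on these arrays, with log2 ratios of -2.87 and -4.54. In PC-3 cells the log2 ratios of TXNIP and ARRDC4 were 0.75 and 0.07. Beside these, the 22Rv1 log2 ratios of MLX and MLXIP were 1.64 and 1.09 as deposited but -0.03 and -0.69 after quantile normalization. Their sign thus depended on the scaling, and a link to TXNIP and ARRDC4 was not tested.

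**Figure D4:**
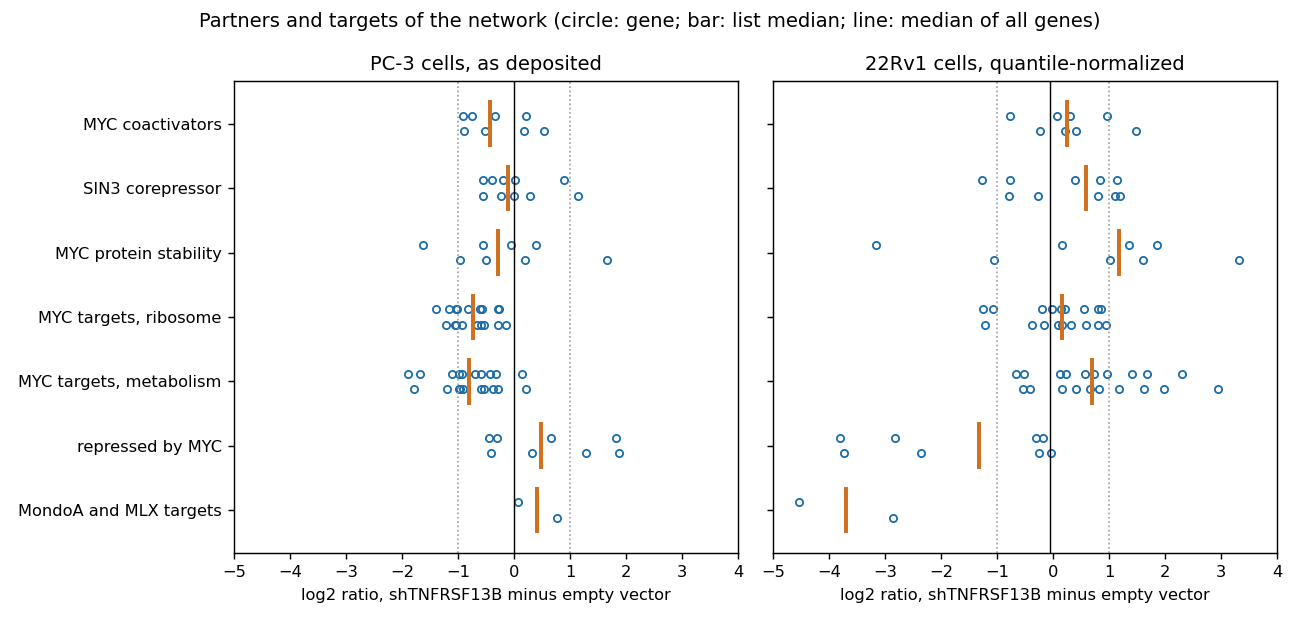
Log2 ratio, shTNFRSF13B minus empty vector (x axis), of each measured gene (circles) in 7 lists of partners and targets of the network (y axis), for PC-3 (deposited values) and 22Rv1 (quantile-normalized values); orange bars are list medians, the black line is the median of all genes and dotted lines mark 2-fold. Both lists of MYC-activated genes lie to the left of the black line in PC-3 cells, with medians of -0.74 and -0.80.

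Among the cofactors, none of 8 measured MYC coactivators passed 2-fold in PC-3 cells, where 5.76% of all genes were higher and 4.69% lower. The median log2 ratio of the coactivators was -0.43. Of the 8, 5 were below 0 and 3 above. The AAA ATPases RUVBL1 and RUVBL2 were at -0.92 and -0.91, the scaffold TRRAP at -0.76 and WDR5, which anchors MYC on chromatin, at -0.52. In 22Rv1 cells all 8 were at least 2-fold higher as deposited, where 58.3% of all genes were, and WDR5 alone was after quantile normalization (3.10 and 1.47 on these scales). That 1 of 8, or 12.5%, was near the 13.3% of all genes. Of 10 measured genes of the SIN3 complex that MXD proteins and MNT recruit, 1 was at least 2-fold higher in PC-3 cells as deposited (ARID4B, 1.14). None was lower, and the shares of all genes were 5.76% and 4.69%. In 22Rv1 cells the SIN3 genes had a median of 2.04 as deposited and 0.59 after quantile normalization, when HDAC2 (1.18), RBBP4 (1.15) and SIN3B were at least 2-fold higher and SAP18 (-1.27) was lower, SIN3B being below the olfactory receptor reference on both 22Rv1 arrays. Beside these counts, 13.3% of all genes were higher and 15.5% lower on that scale. In PC-3 cells SAP18 was at 0.89 as deposited but also passed 2-fold after quantile normalization, at 1.04.

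Genes that set the stability of MYC protein differed more. CIP2A, which shields MYC from dephosphorylation, was at 12.18 and 11.20 on the PC-3 empty vector and shTNFRSF13B arrays and at 6.80 and 11.82 on those of 22Rv1, and its 22Rv1 log2 ratio was 5.01 on the deposited and 3.31 on the quantile scale. USP28, which removes ubiquitin from MYC, had 22Rv1 log2 ratios of 3.50 and 1.85, and the ubiquitin ligases HUWE1 and SKP2 had 3.25 and 2.98 as deposited and 1.59 and 1.35 after quantile normalization. FBXW7, the ligase subunit that marks phosphorylated MYC for degradation, had 1.94 and 0.15. In PC-3 cells FBXW7, USP28, HUWE1 and SKP2 were at 0.39, -0.51, -0.56 and -0.07. Of the 8 measured genes of this list, 1 was at least 2-fold higher in PC-3 cells and 1 was lower, beside 5.76% and 4.69% of all genes. The higher was the ligase subunit FBXO32 (1.66) and the lower was the kinase AURKA (-1.62), which stabilises MYC family proteins. Both took the other direction in 22Rv1 cells, with FBXO32 at -1.41 and AURKA at 2.62 as deposited, or -3.17 and 1.01 on the quantile scale. On that scale 5 of the 8 passed 2-fold upwards in 22Rv1 cells (CIP2A, USP28, HUWE1, SKP2 and AURKA) and 2 downwards (FBXO32 and GSK3B), beside 13.3% and 15.5% of all genes.

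The genes most like MYC over the 4 arrays, by the smallest root mean square distance of the quantile-normalized values after each gene's mean was subtracted, were USP49 (0.015), F12 (0.031), CCDC71L (0.032), SMTN (0.032) and TMEM17 (0.037), out of 13189 genes. MYC ranged over 0.66 on this scale, whereas the median gene ranged over 1.56. Those most like MXI1, the MXD repressor with the widest range (2.46), were OSTC (0.17), FHIP2A (0.20), AKAP9 (0.22), DENND11 (0.23) and KIAA0825 (0.23). All 5 had a log2 ratio between 1.26 and 1.55 in PC-3 cells on this scale, as MXI1 had 1.67. With 4 arrays this likeness is a description only.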

How the data were processed

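Total RNA of the 4 cell populations was hybridised to Affymetrix whole-transcript arrays (Clariom D in the study's methods). The authors deposited log2 values per probe set, and the submitters' notes list Partek, RMA and the Affymetrix Expression Console, with versions not given in the sources used here. RMA corrects background, usually brings arrays to a common distribution and sums probes into 1 value, and it compresses differences of dim genes. The 4 deposited arrays did not share a distribution. The median was 5.33 on the 22Rv1 empty vector array, against 6.93 to 7.01 on the others, and why was not tested. The table holds 24351 probe sets, of which 17709 had 1 listed symbol, none had several and 6642 had none. All 17709 gene numbers were matched to RefSeq (GRCh38.p14). For 20 genes with several probe sets the brightest was used. The sources name no build for the arrays, so no gene coordinates are given.

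Log2 ratios (shTNFRSF13B minus empty vector) were computed with Python 3.11.15, pandas 2.3.3 and numpy 2.4.6. Differences of at least 2-fold were counted, as in the study's methods, with no test. Alternatives were quantile normalization, centring of array medians, loess (statsmodels 0.14.6, fraction 0.4), leaving out a line's dim genes (both values under the 95th percentile of olfactory receptor genes), averaging probe sets in place of the brightest, and thresholds of 1.5-fold and 3-fold. Of these steps, only quantile normalization and loess were checked on simulated arrays, taken as a pair. That check covers the code and lends no support to the values reported. Precision is limited by having 4 arrays.

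The members and gene lists were chosen with earlier results of these data known. The rule for named genes took all members, up to 4 genes of each list with the largest log2 ratio in either line, and the 5 genes most like MYC and the MXD repressor of widest range. ARID4B, SIN3B, SAP18, THBS1, CDKN1B, FBXW7, FBXO32, AURKA, GSK3B, AHCY, IMPDH2, HK2, SHMT2, MRTO4, POLR1B, RRS1, GAS1, CEBPA and FOLH1 were chosen after their values were seen. Genes listed but not measured were left out.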

Additional observations from a re-analysis of the deposited data

Results flagged for a closer look

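MXD3 differed in direction between the lines. Its log2 ratio was -0.71 (PC-3) and 1.84 (22Rv1) as deposited, a difference (22Rv1 minus PC-3) of 2.55, and 0.88 after quantile normalization. With 1 array per condition the difference was not tested. The median log2 ratio of all genes differed between the lines in the same sense as deposited, at -0.0019 (PC-3) and 1.22 (22Rv1), and its part in the deposited difference was not tested.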

How the results depend on the processing

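In PC-3 cells 2 members passed 2-fold under quantile normalization, centring and loess, 4 passed 1.5-fold and 0 passed 3-fold, and the contrast of MYC genes with MXD repressors lay between -1.96 and -1.78. In 22Rv1 cells 6 members passed 2-fold as deposited, 3 after quantile normalization, and 2 with centred medians or after loess. The median of the members was 1.64 as deposited, -0.0253 after quantile normalization, 0.0037 with centred medians and 0.0058 after loess. The contrast there was -0.37 with dim genes left out, against -1.04 as reported. The MYC log2 ratio in 22Rv1 cells was -0.0621, -0.163 and -0.0040 under quantile normalization, centring and loess, and that of MLX was -0.0253 under quantile normalization, each against a positive value as deposited. With centred medians, 9 metabolic MYC targets passed 2-fold downwards in PC-3 cells against 5 as deposited, 1 MYC coactivator (RUVBL1) did against 0, and 5 MYC-repressed genes did in 22Rv1 cells against 3. Under quantile normalization 2 SIN3 genes passed 2-fold upwards in PC-3 cells against 1. Over all genes in 22Rv1 cells, 10.8% were higher and 28.2% lower with centred medians, against 58.3% and 2.01% as deposited. The median log2 ratio of all genes in 22Rv1 cells, 1.22 as deposited, was -0.06, -0.42 and 0.02 under quantile normalization, centring and loess. The mean of probe sets changed no member, since each has 1. A value was said to have moved when it changed by over 1.5-fold. No paired analysis was possible because each condition has 1 array. MYCN on all arrays, and MYCL on 3 of 4, were too dim for their ratios to be read.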
